A study of Mus musculus with 18 samples.

Results

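The comparison covered the 8 PE2 libraries of the 18 aortic RNA-seq libraries of the series, which are 4 from mice homozygous for a prime-edited CArG box at *Tspan2* (*Tspan2* peg/peg) and 4 from wild-type mice. Members were the 4 columns named Homo and the 4 columns named WT in the second count table, and all 55453 gene symbols of that table were examined. All 8 mice were 8 weeks old and of a mixed background (FVB/N/B6(Cg)-Tyrc-2J/J), and the labels name no transgene or Cre. The peg/peg mice and wild-type replicates 1 to 3 were labelled female, and wild-type replicate 4 was labelled male. Every library was labelled as aorta, but the values of the library labelled peg/peg replicate 3 go against that label, as described below. The methods describe the aortae as cleaned of the surrounding fat and connective tissue. The founder and litter of each mouse are not given in the sources used here, and the p-values measure the spread between these samples. The other 10 libraries came from a separate experiment in which the same CArG box was edited by homology-directed repair (HDR). They are 5 aortae homozygous for that edit (*Tspan2* sg/sg) and 5 wild-type aortae, labelled as C57BL/6 mice of 12 weeks. According to the methods, however, the same strains were used for both editors, and founders of both were bred to C57BL/6J mice.

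A CArG box is the DNA element bound by serum response factor (SRF), a transcription factor that works in smooth muscle with the coactivator myocardin to keep contractile genes on, and in most cells with the ternary complex factors to switch on immediate early genes after a stimulus. *Tspan2* encodes a tetraspanin, a small protein with 4 membrane-spanning segments, and it is expressed in vascular smooth muscle. Prime editing uses a Cas9 that nicks a single strand and is fused to a reverse transcriptase, and a pegRNA that carries both the guide sequence and the template of the new bases. PE2 is the version of this editor that leaves the other strand intact.

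Mean *Tspan2* messenger RNA fell by 90.9% in peg/peg aorta, and no other gene passed the quasi-likelihood test of edgeR over 8 libraries. The Wald test of DESeq2 called 33 genes. Beside *Tspan2*, these included 10 genes of chromosome 3, where *Tspan2* lies, and immediate early and glucocorticoid-response genes, which were higher in peg/peg. None of the contractile genes and SRF cofactors was called over 8 libraries. The library labelled peg/peg replicate 3 differed from the other 7 in many genes, so fits with and without it are given.

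The sequences below show the base that separates the 2 genotypes and the guide that placed it. The wild-type site is the forward strand of GRCm38 at chr3:102734411-102734460, upstream of the *Tspan2* start site and inside the annotated antisense gene *Tspan2os*, with the CArG box in capitals. The peg/peg site is the same stretch with the edited base in capitals, a C1G change counted from the 5′ end of the CArG box on the forward strand, at position 102734427 of chromosome 3. The protospacer lies on the reverse strand at chr3:102734427-102734449, with the PAM in capitals, and the capital in the pegRNA marks the base that encodes the change. The pegRNA holds a 20-base spacer, a 10-base reverse transcription template and a 16-base primer binding site.
wild-type site: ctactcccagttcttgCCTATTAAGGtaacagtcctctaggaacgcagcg
peg/peg site: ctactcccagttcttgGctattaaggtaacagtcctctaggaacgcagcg
protospacer and PAM: tagaggactgttaccttaatAGG
pegRNA: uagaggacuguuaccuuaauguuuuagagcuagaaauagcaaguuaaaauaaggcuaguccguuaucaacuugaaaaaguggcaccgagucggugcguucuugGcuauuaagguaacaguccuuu

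Each library held between 38820265 and 44895615 counted reads, and 16401 genes passed the filter on low counts. Expression is given as CPM (counts per 1000000 counted reads, after TMM scaling of the library sizes), and log2 fold changes of peg/peg over wild type are given ± their standard error. The Y-linked *Ddx3y* was at 87.1 CPM in wild-type replicate 4 and at 0 in the other 7 libraries, as their sex labels state. Smooth muscle actin and smooth muscle myosin, which are made in the wall of the aorta and by smooth muscle of other organs, were abundant in all 8 libraries: *Acta2* was at 14374, 24734, 20512 and 13596 CPM in wild-type replicates 1 to 4 and at 23069, 13259, 14186 and 21783 CPM in peg/peg replicates 1 to 4, and *Myh11* was at 4723, 8157, 10124 and 6212 CPM in wild type and 9156, 6175, 15876 and 9347 CPM in peg/peg.

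The library labelled peg/peg replicate 3 stood apart. Its median correlation of log2 CPM with the other 7 libraries was 0.874, whereas those of the other libraries lay between 0.957 and 0.970, and it held 164 genes at 10 times or more the level of every other library and 169 genes at least 10 times below every other library. No other library had more than 1 gene of the first kind or 3 of the second. The urothelial plaque gene *Upk1a* was at 228 CPM there and between 0.483 and 13.7 CPM elsewhere, and the basal keratin *Krt5* was at 174 against 0.28 to 7.48 CPM. A list of 16 urothelial genes, made after these values were seen, summed to 1866 CPM in this library and 29.96 to 133 CPM in the others. *Hoxa13*, a homeobox gene of the hindmost part of the body axis, was at 55.5 CPM against at most 0.331 CPM. Desmin and enteric smooth muscle actin were also high, with *Des* at 5554 against 92 to 111 CPM and *Actg2* at 8915 against 160.4 to 456 CPM.

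Genes of the elastic arterial wall were low in the same library. Elastin (*Eln*) was at 620.4 CPM there and between 11609 and 34832 CPM in the other 7. The integrin subunit gene *Itga8* was at 50.7 against 2425 to 4025 CPM. *Sost*, which encodes the Wnt antagonist sclerostin and is made in arterial smooth muscle, was at 0 in this library and at 302 to 702 CPM elsewhere. The endothelial gene *Pecam1* was at 186 against 545 to 1269 CPM, and *Ucp1* of brown fat was at 1.36 against 163 to 1639.7 CPM. These values go against the label of aorta, and the tissue that this library came from is in doubt. The genes were picked for their values, and the part they played in the genotype comparison was not tested beyond leaving the library out.

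**Figure D1:**
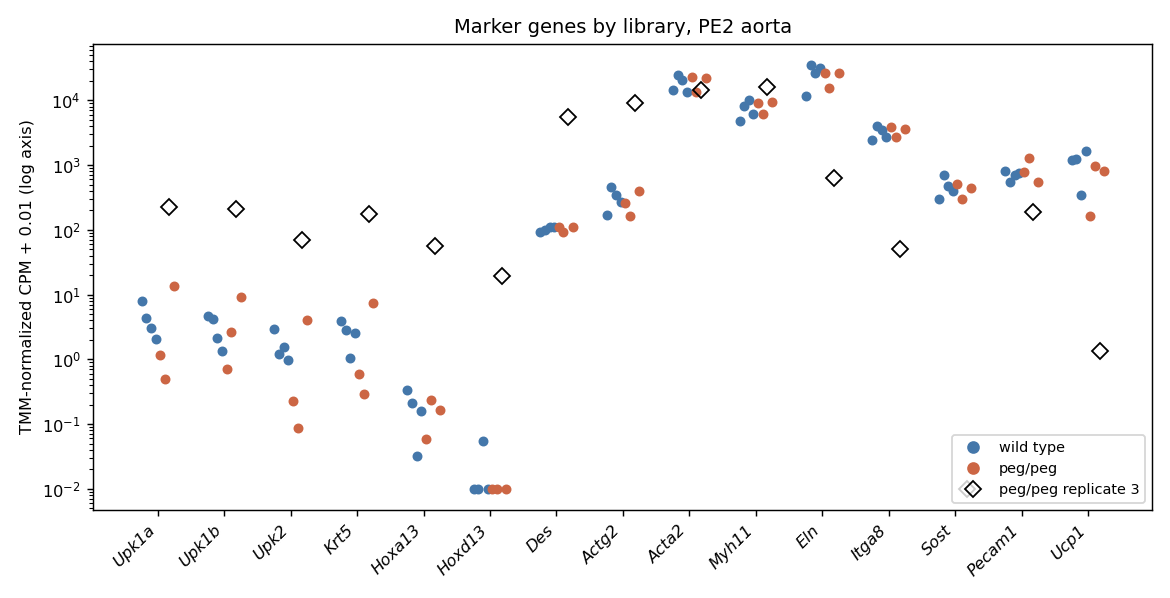
CPM of 15 marker genes in the 8 PE2 libraries on a log axis after 0.01 was added to each value; blue points are wild type, orange points are peg/peg and the open diamond is the library labelled peg/peg replicate 3. The diamond lies above all other points for the urothelial genes, *Hoxa13*, *Hoxd13*, *Des* and *Actg2*, and below them for *Eln*, *Itga8*, *Sost*, *Pecam1* and *Ucp1*.

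Some genes split the libraries without regard to genotype. The clock output gene *Dbp* was at 8.91, 18, 199 and 124 CPM in wild-type replicates 1 to 4 and at 11.9, 9.46, 86.2 and 174 CPM in peg/peg replicates 1 to 4, so that replicates 1 and 2 were low and replicates 3 and 4 high in both genotypes. The clock repressor gene *Nr1d1* was at 50.2, 132, 357 and 250.1 CPM in wild type and 55.3, 72.5, 213 and 276 CPM in peg/peg. The dissection times of the mice are not given in the sources used here. The sympathetic neuron genes *Th* and *Npy* were high in wild-type replicate 4 and peg/peg replicates 1 and 2. *Th* was at 0.0764, 0, 0 and 27.3 CPM in wild type and 32.8, 50.9, 0.131 and 0.521 CPM in peg/peg. A list of 16 sympathetic neuron genes, also made after the values were seen, summed to 17.9, 5.26, 12.8 and 250 CPM in wild type and to 297, 411, 20.1 and 6.51 CPM in peg/peg.

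A further 16 genes were at 4 times or more in wild-type replicates 2, 3 and 4 and peg/peg replicate 3 than in wild-type replicate 1 and peg/peg replicates 1, 2 and 4, and no gene had the opposite pattern. Of these 16 genes, 9 lie on chromosome 17, and several are class I histocompatibility genes. *H2-Q2* was at 0.178, 9.29, 9.13 and 6.64 CPM in wild type and 0.0484, 0.305, 8.43 and 0 CPM in peg/peg. *H2-T10* was at 0.942, 14.8, 12 and 7.13 CPM and 1.5, 1.68, 15.2 and 1.25 CPM. The gene *Gm10260* of chromosome 13 was at 0.0509, 112, 90.8 and 49.3 CPM in wild type and 0.218, 0.585, 164 and 0.521 CPM in peg/peg. The split ran across both genotypes, and with replicate 3 left out it left 3 low peg/peg libraries against 1 low and 3 high wild-type libraries. Class I genes are members of a family of close copies, between which reads can be misassigned. The split also took in genes of other chromosomes, such as *Gm10260*. The mice were labelled as of a mixed background, and the cause of the split was not tested.

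**Figure D2:**
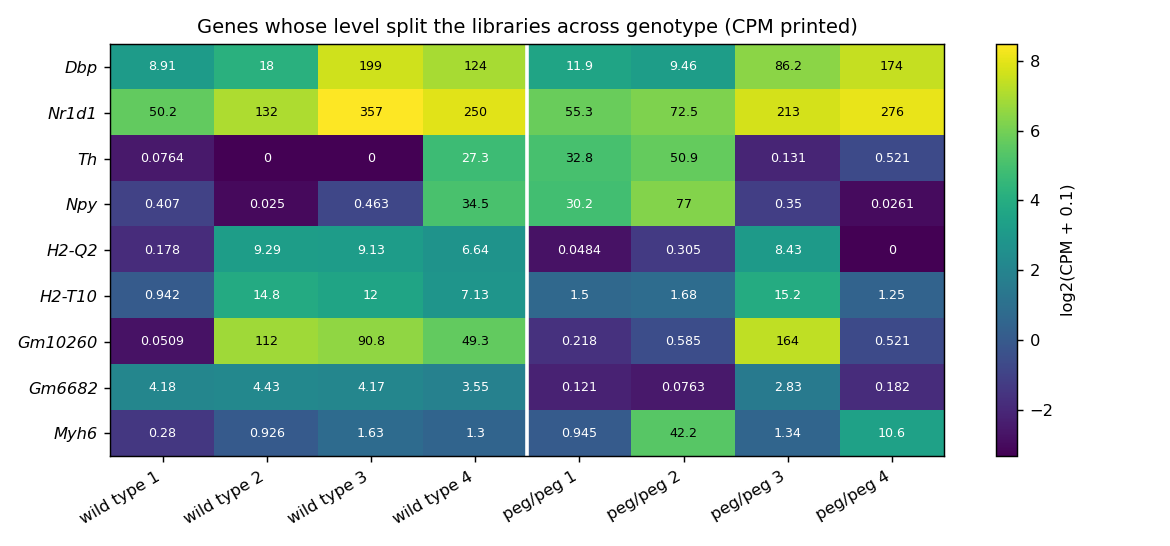
CPM of 9 genes (rows) in the 8 PE2 libraries (columns), coloured by log2(CPM + 0.1) with the CPM printed in each cell; the white line parts wild type from peg/peg. *Dbp* and *Nr1d1* divide replicates 1 and 2 from 3 and 4, *Th* and *Npy* are high in wild type 4 and peg/peg 1 and 2, and *H2-Q2*, *H2-T10* and *Gm10260* are low in wild type 1 and peg/peg 1, 2 and 4.

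The edited gene itself was measured in every library. *Tspan2* (ENSMUSG00000027858, GRCm38 chr3:102734529-102801513, forward strand) was at 194, 284, 208 and 186 CPM in wild-type replicates 1 to 4 and at 25.5, 25.5, 11.9 and 16.9 CPM in peg/peg replicates 1 to 4. The groups did not overlap, and the library labelled peg/peg replicate 3 was the lowest of all. The means were 218 ± 45.1 CPM (SD, n = 4) in wild type and 19.9 ± 6.74 CPM (SD, n = 4) in peg/peg. The log2 fold change was −3.45 ± 0.29, with an adjusted p of 0.0292 by edgeR. Without replicate 3 it was −3.28 ± 0.22, with an adjusted p of 0.00524 by edgeR, and the remaining 3 peg/peg libraries averaged 22.6 ± 4.98 CPM (SD, n = 3). The exact two-sided permutation test of CPM gave p = 0.0286 with and without replicate 3, which is the smallest value that either design allows. In edgeR the call on 8 libraries was lost when any 1 library other than peg/peg replicate 3 was left out (adjusted p between 0.0604 and 0.224), while the log2 fold change stayed between −3.60 and −3.28. DESeq2 gave an adjusted p of 1.15e-27 on 8 libraries.

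The antisense gene *Tspan2os*, which overlaps the CArG box on the reverse strand, was counted in few reads. Wild-type replicates 1 to 4 held 3, 6, 6 and 2 reads, and peg/peg replicates 1 to 4 held 0, 2, 1 and 0. The pooled ratio of peg/peg to wild type after scaling was 0.178 with an exact 95% interval of 0.0335 to 0.616, which covers counting error only. The exact two-sided permutation test of CPM gave p = 0.0571. Wild-type replicate 4 and peg/peg replicate 2 held equal numbers of reads. Without replicate 3 the ratio was 0.159 (0.0179 to 0.672) and the exact permutation p was 0.0857. Whether reads were counted by strand is not given in the sources used here, so reads of *Tspan2* and of its antisense partner may not be separated.

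No other tetraspanin gene passed an adjusted threshold. Of 31 listed tetraspanins, 28 were tested, and at an unadjusted edgeR p under 0.05, the level at which 3.04% of all genes tested were higher in peg/peg and 1.27% lower, 2 were higher and 1, *Tspan2*, was lower. The 2 higher genes, *Tspan8* and *Upk1b*, were highest in the library labelled peg/peg replicate 3. *Tspan8* was at 56.3 CPM there and 0.11 to 1.42 CPM elsewhere. *Upk1b* was at 4.61, 4.13, 2.14 and 1.32 CPM in wild type and 0.702, 2.59, 206 and 9.04 CPM in peg/peg. Without that library none was higher (background 2.19%), and *Tspan13* joined *Tspan2* as lower (background 1.91%), with a log2 difference of −0.34 ± 0.12, an unadjusted edgeR p of 0.0249 and an adjusted p of 0.989. The median log2 difference of the list was −0.09 without replicate 3, beside −0.01 over all 16668 genes tested.

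Across the genome, edgeR with a Benjamini-Hochberg adjusted p under 0.05 called 0 genes higher and 1 gene lower of the 16401 tested (0.0061%). At an unadjusted p under 0.05 it found 498 genes higher and 208 lower (4.3% together). Without replicate 3 it called 2 genes, both lower (0.012% of 16668), and 365 genes higher and 318 lower passed the unadjusted threshold (4.1% together). The second gene was *Gm6682*, a processed pseudogene of chromosome 12, which was at 4.18, 4.43, 4.17 and 3.55 CPM in wild type and 0.121, 0.0763, 2.83 and 0.182 CPM in peg/peg, so that replicate 3 was close to wild type and the other 3 were not. Its log2 fold change without replicate 3 was −4.99 ± 0.35, with an adjusted p of 0.00524 by edgeR. Without wild-type replicate 3 the 1 gene that edgeR called was higher: it was the pseudogene *Gm3608*, with a log2 fold change of 6.06 ± 0.31 and an adjusted p of 0.00389, in place of *Tspan2* (adjusted p 0.0604).

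DESeq2, the tool that the study's methods name, called 23 genes higher (0.132% of 17481 tested) and 10 lower (0.0572%) over 8 libraries, 0.189% in all. Without replicate 3 it called 63 higher (0.321% of 19608 tested) and 37 lower (0.189%), 0.51% in all. The 2 sets shared 27 genes, which are 27 of the 33 and 27 of the 100. The 6 genes called over 8 libraries alone were *A930005H10Rik*, *Gm15920*, *Muc1*, *Tenm2*, *Tent5b* and *Unc5cl*. Of the 33 genes, 30 were tested by edgeR, and all 30 had an unadjusted p under 0.05 there. Both tools used the same counts, so this is not a separate test, and after adjustment edgeR called *Tspan2* alone. For the 99 genes other than *Tspan2* that were called without replicate 3, that library took no part in the fit. It lay beyond the wild-type range on the called side for 47, inside the wild-type range for 20 and beyond it on the opposite side for 32. Its tissue is in doubt and it was left out after its values were seen, so its place is not a test of the genotype. Over all 871 genes tested by edgeR whose groups did not overlap without replicate 3 (5.23% of 16668), it lay on the same side for 424 (48.7%).

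Chromosome 3 held 10 of the 32 DESeq2 calls other than *Tspan2* over 8 libraries (31.2%) and 18 of 99 without replicate 3 (18.2%), whereas 4.98% and 5.05% of the genes tested lie there. Over 8 libraries 6 of the 10 were higher and 4 lower. They lay between 0.0841 and 39.9 Mb from the CArG box, and 8 of the 10 within 20 Mb. Without replicate 3, 9 were higher and 9 lower, at up to 66.3 Mb, with 10 within 20 Mb. The share of all tested genes of chromosome 3 within 20 Mb was not counted. The counts therefore do not show whether called genes gather near the box. The library labelled peg/peg replicate 3, unused in that fit, lay beyond wild type on the called side for 13 of the 18 genes. It lay inside the wild-type range for 4 and on the opposite side for 1. With its tissue in doubt, this place is not a test of the genotype, and some of the 18 were also called with it in the fit. The mice were of a mixed background. For the genes of chromosome 3 here and below, strain variants inherited with the edited allele cannot be told apart from the edit itself.

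*Capza1*, which encodes an alpha subunit of the protein that caps actin filaments, lies 2.09 Mb from the CArG box. It was at 33.9, 29.6, 24.2 and 35.2 CPM in wild type and 15.3, 13.6, 14.5 and 12.8 CPM in peg/peg, with no overlap and with replicate 3 inside the range of the other peg/peg libraries. It fell by DESeq2, with a log2 fold change of −1.13 ± 0.16 and an adjusted p of 1.40e-08 over 8 libraries and −1.14 ± 0.17 and 8.38e-08 without replicate 3. The edgeR adjusted p was 0.241. *Hist2h2be*, a histone H2B gene at 6.51 Mb, was at 19.6, 21.4, 24.9 and 23.7 CPM in wild type and 9.64, 16.3, 7.84 and 10.3 CPM in peg/peg, which did not overlap. The DESeq2 log2 fold change was −1.02 ± 0.25 with an adjusted p of 0.0332 over 8 libraries and −0.89 ± 0.22 and 0.0162 without replicate 3. *Capza1* and *Hist2h2be* were picked from calls on these same libraries, so their separation was largely set by the choice. *Scnm1*, a splicing factor gene of the same chromosome, was among the 5 lower genes with the smallest edgeR p and was at 22.2, 20.8, 22 and 19.1 CPM in wild type and 12.4, 16.6, 15.2 and 14.2 CPM in peg/peg, with an edgeR log2 difference of −0.53 ± 0.12 and an adjusted p of 0.861 (−0.56 ± 0.12 and 0.566 without replicate 3).

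*Hjv*, which encodes hemojuvelin, a co-receptor of bone morphogenetic proteins, lies 6.21 Mb away by RefSeq. It was at 2.19, 2.78, 3.13 and 4.68 CPM in wild type and 0.606, 1.42, 0.285 and 0.756 CPM in peg/peg and fell by DESeq2 (log2 fold change −2.06 ± 0.48, adjusted p 0.0179, and −1.78 ± 0.40 and 0.00377 without replicate 3). The mucin gene *Muc1* was at 1.76, 2.03, 1.94 and 1.59 CPM in wild type and 0.823, 0.966, 0.569 and 1.09 CPM in peg/peg, and its DESeq2 call (log2 fold change −1.09 ± 0.28, adjusted p 0.0437) was lost without replicate 3 (adjusted p 0.128).

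*Kcnab1*, which encodes a beta subunit of voltage-gated potassium channels, was called by DESeq2 without replicate 3 alone. Its level was 142, 219, 176 and 154 CPM in wild type and 56.9, 78.6, 5.63 and 41.5 CPM in peg/peg, and replicate 3 was the lowest. The DESeq2 log2 fold change was −1.55 ± 0.25 with an adjusted p of 5.13e-07 without that library and −1.92 ± 0.60 with an adjusted p of 0.292 with it. The calcium-binding gene *S100a11* was at 192, 201, 197 and 175 CPM in wild type and 119, 152, 86.2 and 127 CPM in peg/peg, again with no overlap, and had an adjusted p of 0.0177 by DESeq2 without replicate 3 (−0.52 ± 0.13) and 0.203 with it (−0.66 ± 0.20). Both genes were picked from calls on the libraries other than replicate 3, so the separation of those libraries was largely set by the choice.

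Another set of genes of chromosome 3 was close to 0 in wild type and present in all 4 peg/peg libraries. *Sycp1*, which encodes a protein of the synaptonemal complex that pairs chromosomes in meiosis, is the called gene nearest to the edit, at 0.0841 Mb. It was at 0, 0, 0.0662 and 0 CPM in wild type and 0.436, 1.45, 1.29 and 0.443 CPM in peg/peg, from 3 and 151 reads in all, with a DESeq2 log2 fold change of 5.67 ± 1.12 and an adjusted p of 0.000644 over 8 libraries and 5.46 ± 1.21 and 0.00282 without replicate 3. *Gbp2b*, a guanylate-binding protein gene induced by interferon, lies 39.9 Mb away and was at 0.178, 0.225, 0.154 and 0.122 CPM in wild type and 1.48, 3.38, 2.89 and 0.99 CPM in peg/peg (DESeq2 log2 fold change 3.69 ± 0.53, adjusted p 3.27e-08, and 3.52 ± 0.58 and 1.36e-06 without replicate 3). *Selenbp2*, a selenium-binding protein gene with a close copy nearby, was at 0.0764, 0, 0.132 and 0.098 CPM and 0.872, 0.636, 2.23 and 0.964 CPM (3.92 ± 0.72, adjusted p 0.000129, and 3.41 ± 0.70 and 0.000668 without replicate 3, DESeq2). The long non-coding RNA gene *Gm42743* was at 0, 0.0501, 0.0441 and 0 CPM and 1.86, 0.534, 1.53 and 0.729 CPM (5.60 ± 0.94, adjusted p 7.81e-06, and 5.44 ± 1.01 and 7.05e-05 without replicate 3, DESeq2). *Cfi*, which encodes the complement protease factor I, was at 0, 0, 0.0662 and 0.0245 CPM and 1.38, 0.915, 0.307 and 0.339 CPM (4.96 ± 1.06, adjusted p 0.0031, and 5.21 ± 1.05 and 0.000456 without replicate 3, DESeq2). In each of these 5 genes the lowest peg/peg library lay above the highest wild-type library, and replicate 3 lay on the peg/peg side. The genes were picked from calls on these same libraries, so this separation was largely set by the choice. All 4 peg/peg libraries lay above wild type in 1.42% of all genes tested by edgeR.

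**Figure D3:**
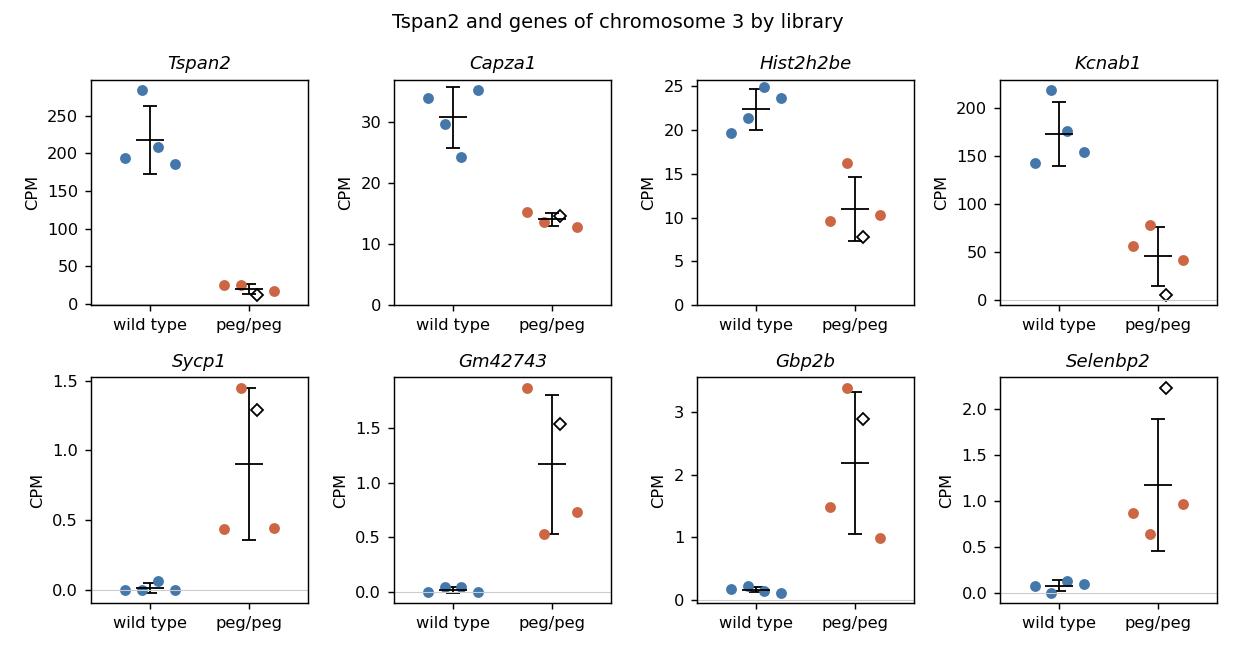
CPM of *Tspan2* and 7 other genes of chromosome 3 in each library, with wild type in blue, peg/peg in orange and the library labelled peg/peg replicate 3 as an open diamond; bars give the mean and SD of 4 libraries. The diamond lies on the peg/peg side in all 8 genes. The 7 genes other than *Tspan2* were picked from calls on these same libraries.

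**Figure D4:**
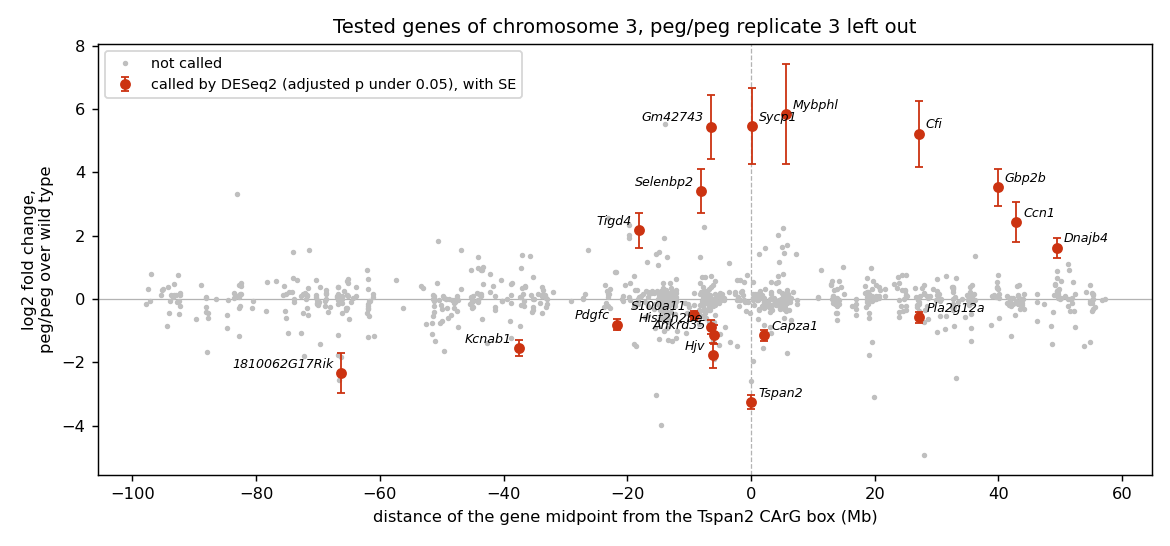
DESeq2 log2 fold change of peg/peg over wild type, without peg/peg replicate 3, of the tested genes of chromosome 3 against the distance of the gene midpoint from the *Tspan2* CArG box in Mb; red points with SE bars are called genes and grey points are not called. Called genes lie on both sides of the box and of 0, from 66.3 Mb upstream (*1810062G17Rik*) to 49.4 Mb downstream (*Dnajb4*).

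Immediate early genes, which SRF and its cofactors can switch on within minutes of a stimulus, were next set side by side. This list, like those of the other gene families and cell types, was written with earlier results of these data known. Its counts are therefore descriptions and not a test. Of 40 listed genes 38 were tested, 20 had an unadjusted edgeR p under 0.05, and all 20 were higher (background 3.04%). The median log2 difference was 0.97, beside 0.01 over all genes tested. Without replicate 3 it was 26 of 38, all higher (background 2.19%), with a median of 0.86. None passed the adjusted threshold of edgeR. DESeq2 called 4 of them (*Btg2*, *Fosl2*, *Ptgs2* and *Sik1*) over 8 libraries and 16 without replicate 3, all higher. The summed level of the list was 3162, 2239, 2241 and 1408 CPM in wild type and 6769, 5808, 1987 and 4704 CPM in peg/peg, so that replicate 3 lay within the wild-type range and the other 3 peg/peg libraries above it. In 8 of the 38 genes all 4 peg/peg libraries lay above all wild-type libraries, as they did for 1.42% of all genes tested, while they lay below for 1.11% (2.53% in either direction). In 20 of 38 the 3 libraries other than replicate 3 lay above wild type (2.72% of all genes tested above and 2.51% below).

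Among the genes that replicate 3 shared, the growth-arrest gene *Btg2* was at 71.6, 69.9, 79.7 and 56.4 CPM in wild type and 228, 159, 97.5 and 162 CPM in peg/peg, with a DESeq2 log2 fold change of 1.22 ± 0.27 (adjusted p 0.00781) and 1.40 ± 0.19 (adjusted p 6.76e-10) without replicate 3. *Ptgs2*, the inducible cyclooxygenase gene, was at 3.28, 1.05, 1.76 and 1.3 CPM and 7.56, 7.6, 14.6 and 6.1 CPM (DESeq2 log2 fold change 2.27 ± 0.43, adjusted p 0.000307, and 1.94 ± 0.38 and 0.000247 without replicate 3). The salt-inducible kinase gene *Sik1* was at 17.1, 12.2, 14.1 and 19.2 CPM and 43.4, 25, 30.3 and 37.5 CPM (DESeq2 log2 fold change 1.12 ± 0.24, adjusted p 0.00305, and 1.18 ± 0.24 and 0.000606 without replicate 3). In these 3 genes every peg/peg library lay above every wild-type library. All 3 were picked from calls on these same libraries and because replicate 3 shared the difference, so this separation was set by the choice. It held for 8 of the 38 tested genes of the list, beside 1.42% of all genes tested by edgeR.

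Other genes of the list were higher in peg/peg replicates 1, 2 and 4 alone. The MAP kinase phosphatase gene *Dusp1* was at 124, 151, 140.5 and 80.8 CPM in wild type and 380, 341, 38.3 and 387 CPM in peg/peg, and replicate 3 lay below all wild-type libraries. Its DESeq2 log2 fold change was 1.58 ± 0.22 (adjusted p 1.92e-09) without replicate 3 and 1.21 ± 0.58 (adjusted p 0.892) with it. The nuclear receptor gene *Nr4a1* was at 43.8, 19.3, 26.2 and 16 CPM and 160.4, 99.2, 26.4 and 102 CPM, with 2.20 ± 0.34 (adjusted p 3.26e-07, DESeq2) without replicate 3 and 1.88 ± 0.52 (adjusted p 0.103) with it. *Atf3*, a stress-induced transcription factor gene, was at 9.4, 10.5, 24.5 and 5.76 CPM and 89.8, 48.4, 7.23 and 94.3 CPM, with 2.63 ± 0.44 (adjusted p 2.64e-06, DESeq2) without it and 2.26 ± 0.69 (adjusted p 0.249) with it. *Klf2*, a transcription factor gene that responds to flow in endothelium, was at 59.4, 36.7, 45.6 and 38.9 CPM and 108, 120.1, 28.7 and 93.5 CPM, with 1.25 ± 0.20 (adjusted p 8.69e-07, DESeq2) without replicate 3 and 0.96 ± 0.42 (adjusted p 0.815) with it.

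**Figure D5:**
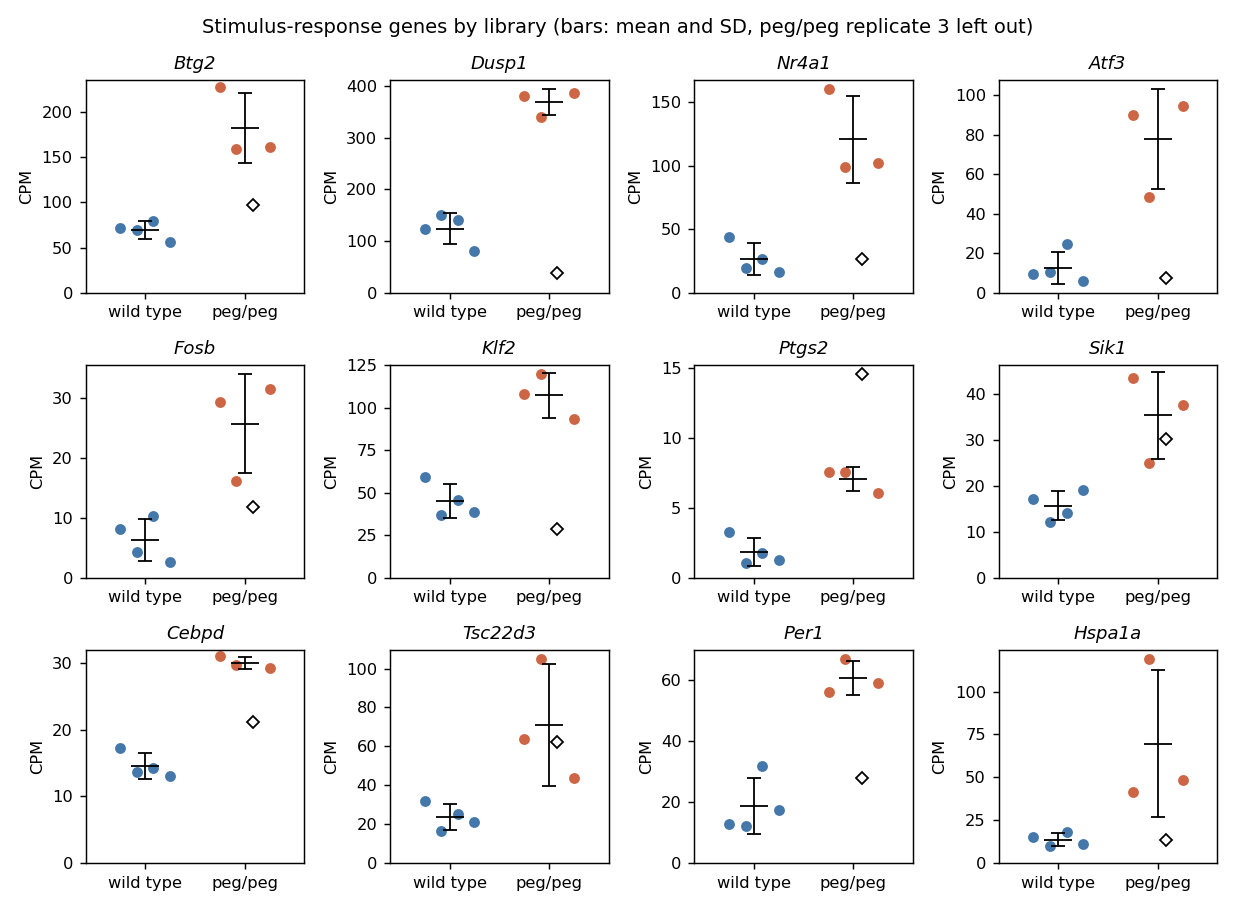
CPM of 12 stimulus-response genes in each library, with wild type in blue, peg/peg in orange and the library labelled peg/peg replicate 3 as an open diamond; bars give the mean and SD of 4 wild-type libraries and of 3 peg/peg libraries without replicate 3. The filled orange points lie above the blue points in all 12 genes, and the diamond lies below all blue points for *Dusp1* and *Klf2*. The 12 genes were picked from calls on these same libraries.

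A CArG box in a start-site window is uncommon, and a few genes of this list have one. RefSeq windows from 250 bases before to 50 after a start site were searched on both strands for the CArG consensus, and 535 of 32851 windows (1.63%) and 488 of 27025 genes (1.81%) held one. Of the 28 immediate early genes with a window, 3 did: *Egr2*, *Dusp5* and *Zfp36*. The listed genes without a window were not searched. Boxes outside the window or off the consensus were not looked for, so the other genes may still have one. RefSeq places both start sites of *Tspan2* downstream of the Gencode start, and the edited box, which is close to the Gencode start, lies upstream of both RefSeq windows. The sequences are shown because they are the boxes of genes described here, from GRCm38.p6, 5′ to 3′ on the gene's strand with the CArG box in capitals. They lie at chr7:28379267-28379296 (*Zfp36*), chr10:67537484-67537513 and chr10:67537787-67537816 (*Egr2*), and chr19:53529053-53529082 and chr19:53529063-53529092 (*Dusp5*).
*Zfp36*: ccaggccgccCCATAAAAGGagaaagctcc
*Egr2*, first window: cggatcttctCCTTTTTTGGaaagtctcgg
*Egr2*, second window: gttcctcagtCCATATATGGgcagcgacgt
*Dusp5*, first box: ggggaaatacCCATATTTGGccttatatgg
*Dusp5*, second box: ccatatttggCCTTATATGGgcactcacgt

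*Zfp36*, which encodes an RNA-binding protein that destabilizes cytokine messengers, was at 67.6, 53.9, 69.2 and 40.8 CPM in wild type and 126, 101, 63.2 and 121 CPM in peg/peg. It rose by DESeq2 without replicate 3 (log2 fold change 1.00 ± 0.21, adjusted p 0.00124) and was not called with it (0.82 ± 0.28, adjusted p 0.407). The zinc finger gene *Egr2* was at 2.52, 0.576, 1.04 and 1.67 CPM and 4.24, 3.94, 2.08 and 2.47 CPM, with an edgeR log2 difference of 1.13 ± 0.47 (unadjusted p 0.0424, adjusted p 0.861) and 1.28 ± 0.48 (0.0278 and 0.989) without replicate 3. The phosphatase gene *Dusp5* was at 3.72, 3.88, 3.99 and 2.33 CPM and 3.95, 2.62, 7.64 and 4.48 CPM, with an edgeR log2 difference of 0.43 ± 0.35 (unadjusted p 0.254, adjusted p 0.861) and 0.07 ± 0.28 (0.796 and 0.993) without replicate 3. Over all 198 tested genes with a CArG box in a window, 15 were higher and 2 lower at an unadjusted edgeR p under 0.05, beside 3.04% and 1.27% of all genes tested, with a median of 0.07. Without replicate 3, 7 were higher and 4 lower, shares close to the 2.19% and 1.91% of all genes, with a median of −0.01.

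Some genes that respond to glucocorticoids or fasting were also higher. Of 24 tested, 5 had an unadjusted edgeR p under 0.05 over 8 libraries and 6 without replicate 3, all higher (background 3.04% and 2.19%), with medians of 0.29 and 0.30. *Tsc22d3*, the glucocorticoid-induced leucine zipper gene, was at 31.8, 16.2, 25.1 and 20.9 CPM in wild type and 63.9, 105, 62.3 and 43.8 CPM in peg/peg, without overlap (DESeq2 log2 fold change 1.55 ± 0.32, adjusted p 0.00229, and 1.59 ± 0.32 and 0.000456 without replicate 3). *Cebpd*, a transcription factor gene of the acute-phase response, was at 17.3, 13.6, 14.3 and 13 CPM and 31.1, 29.7, 21.2 and 29.4 CPM, without overlap (DESeq2 log2 fold change 0.94 ± 0.18, adjusted p 0.000539, and 1.05 ± 0.14 and 6.76e-10 without replicate 3). *Depp1*, a target of FOXO factors, was at 7.79, 9.54, 10.8 and 11 CPM and 23.8, 35.9, 15.9 and 16.6 CPM, without overlap (DESeq2 log2 fold change 1.24 ± 0.30, adjusted p 0.0315, and 1.38 ± 0.27 and 0.000295 without replicate 3). *Tsc22d3*, *Cebpd* and *Depp1* were picked from calls on these same libraries, so their separation was largely set by the choice.

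*Per1*, a clock gene that glucocorticoids also induce, was at 12.7, 12.1, 31.9 and 17.5 CPM in wild type and 55.9, 67, 27.7 and 59.2 CPM in peg/peg, and wild-type replicate 3 was above peg/peg replicate 3. Its DESeq2 adjusted p was 0.0717 over 8 libraries and 0.000182 without replicate 3 (log2 fold change 1.71 ± 0.33). It was the 1 gene of 19 clock genes that had an unadjusted edgeR p under 0.05 without replicate 3, and the median of that list was −0.02. The kinase gene *Sgk1* was at 51.2, 36.9, 47.5 and 37.5 CPM and 107, 88.3, 15.5 and 80.6 CPM, with a DESeq2 adjusted p of 2.56e-06 without replicate 3 and 0.945 with it.

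Of 17 heat shock genes, 2 were higher at an unadjusted edgeR p under 0.05 over 8 libraries and 4 without replicate 3, beside 3.04% and 2.19% of all genes tested, with a median of 0.33 in both. *Hspa1a* was at 14.8, 9.94, 18.1 and 11.2 CPM in wild type and 41.4, 119, 13.6 and 48.5 CPM in peg/peg, and its near-identical neighbour *Hspa1b* was at 12.1, 11.6, 14.8 and 8.79 CPM and 23.6, 87.3, 29 and 30.2 CPM. Both encode inducible HSP70, and reads can be misassigned between them. DESeq2 called *Hspa1b* over 8 libraries (log2 fold change 1.84 ± 0.44, adjusted p 0.0193) and both without replicate 3 (adjusted p 0.000728 for *Hspa1b* and 4.91e-07 for *Hspa1a*). Peg/peg replicate 2 was the highest in both genes.

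Chromosome 17 held 4 of the 32 DESeq2 calls other than *Tspan2* over 8 libraries (12.5%, with 4.82% of the genes tested) and 18 of 99 without replicate 3 (18.2%, with 4.69% of the genes tested). The 18 comprised 5 higher and 13 lower genes, and 5 of the lower ones were class I histocompatibility genes (*H2-Q1*, *H2-Q2*, *H2-Bl*, *H2-T-ps* and *H2-T10*). The last 4 are among the 16 genes of the split described above, as are the lower genes *A930015D03Rik* and *Gm18736*. Of the genes called lower on other chromosomes without replicate 3, *Gm9825*, *Gm10260*, *Gm10263* and *Gm6368* also belong to that split. *Hspa1a*, *Hspa1b*, *Hspa1l*, *Sik1* and *Dusp1* were the 5 higher genes. The organic cation transporter genes *Slc22a2* and *Slc22a3* were both lower. *Slc22a3* was at 12, 81.6, 90.4 and 41.2 CPM in wild type and 6.95, 9.81, 1.16 and 7.32 CPM in peg/peg, where wild-type replicate 1 was close to the peg/peg libraries, and had a DESeq2 log2 fold change of −3.16 ± 0.68 (adjusted p 0.00403) over 8 libraries and −2.81 ± 0.69 (adjusted p 0.0139) without replicate 3.

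Of the other DESeq2 calls over 8 libraries, *Socs1*, a suppressor of cytokine signalling, fell: it was at 6.03, 10.3, 10.4 and 9.65 CPM in wild type and 3.83, 5.24, 3.85 and 3.88 CPM in peg/peg (log2 fold change −1.12 ± 0.24, adjusted p 0.00333, and −1.08 ± 0.25 and 0.00822 without replicate 3, DESeq2). The recombination gene *Rag1*, which is active in developing lymphocytes, was at 5.83, 0.626, 0.287 and 2.89 CPM and 0.0727, 0.381, 0.0219 and 0.0782 CPM (−4.12 ± 1.02, adjusted p 0.0336, and −3.76 ± 0.96 and 0.0233 without replicate 3, DESeq2). *Hist1h2al*, annotated as a processed pseudogene of the histone family, was at 0, 0.025, 0.132 and 0 CPM and 1.43, 0.712, 1.62 and 1.64 CPM (5.03 ± 0.81, adjusted p 2.83e-06, and 4.94 ± 0.91 and 5.20e-05 without replicate 3, DESeq2). The pseudogene *Gm3608* was at 0.127, 0.2, 1.39 and 0.098 CPM in wild type and 10.2, 8.75, 10.4 and 9.48 CPM in peg/peg (4.40 ± 0.74, adjusted p 7.81e-06, and 4.38 ± 1.00 and 0.00513 without replicate 3, DESeq2), and the ribosomal protein pseudogene *Rpl34-ps2* was at 0.127, 0.0751, 0.221 and 0.049 CPM and 0.606, 1.6, 0.92 and 0.703 CPM (3.00 ± 0.61, adjusted p 0.00113, and 3.03 ± 0.69 and 0.005 without replicate 3, DESeq2). The groups did not overlap in these genes other than *Rag1*. The genes were picked from calls on these same libraries, so this separation was largely set by the choice. Over all genes tested by edgeR, peg/peg lay wholly above wild type in 1.42% and wholly below in 1.11%. *Gm12892*, *Gm4815*, *Gm8778*, *Tenm2* and *Tent5b* were called higher, with log2 fold changes of 3.02, 2.68, 4.96, 3.91 and 2.74, and *Gm15920* and *Unc5cl* lower, with −5.45 and −3.08. Without replicate 3 the 5 values were 2.96, 2.52, 4.94, 1.90 and 1.62, and those of *Gm15920* and *Unc5cl* were −5.38 and −2.78. *Gm12892*, *Gm4815*, *Gm8778* and *Gm15920* are annotated as processed pseudogenes.

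Contractile genes of smooth muscle, the best known targets of SRF and myocardin, were called at about the share of all genes. Of 28 tested, 1 (*Des*) was higher and none lower at an unadjusted edgeR p under 0.05 over 8 libraries, beside 3.04% and 1.27% of all genes tested, with a median of 0.35. *Des* was at 92, 100.1, 109 and 109.5 CPM in wild type and 111, 92.4, 5554 and 109 CPM in peg/peg, so that replicate 3 alone was high. Without that library 1 gene, *Filip1l*, was higher and none lower (background 2.19% and 1.91%), with a median of 0.05 beside −0.01 over all genes tested. *Filip1l*, a filamin-interacting protein gene with a CArG box in its start-site window, was at 404, 376, 393 and 289.8 CPM and 568, 552, 212 and 496 CPM and had a DESeq2 log2 fold change of 0.56 ± 0.15 (adjusted p 0.0482) without replicate 3 and 0.32 ± 0.32 (adjusted p 0.945) with it.

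The genes of SRF and its cofactors gave 1 unadjusted difference. Of 14 tested, *Myocd*, which encodes myocardin, was higher with and without replicate 3 and none was lower (background 3.04% higher with replicate 3 and 2.19% without). It was at 40.5, 42.7, 42.9 and 35.3 CPM in wild type and 66.4, 85.1, 116 and 35.2 CPM in peg/peg, where peg/peg replicate 4 was just below the lowest wild-type library. The edgeR log2 difference was 0.91 ± 0.31 (unadjusted p 0.0195, adjusted p 0.861) and 0.62 ± 0.26 (unadjusted p 0.0431, adjusted p 0.989) without replicate 3. *Srf* itself was at 55.6, 64.5, 64.5 and 49.9 CPM in wild type and 73.8, 58.5, 103 and 69.95 CPM in peg/peg, with an edgeR log2 difference of 0.38 ± 0.18 (unadjusted p 0.0642) and of 0.19 ± 0.13 without replicate 3 (unadjusted p 0.163). Of 30 genes of contraction signalling, 2 were higher with replicate 3 (*Avpr1a* and *P2rx1*) and 2 others without it (*Ryr2* and *Rgs4*), against the same background, with medians of 0.03. Of 18 genes of the extracellular matrix none passed the unadjusted threshold in either fit, with medians of −0.03 and 0.09.

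Some markers of cardiac muscle and lymphoid cells passed the unadjusted threshold, but their levels also varied between libraries of the same genotype. Of 11 tested genes of cardiac muscle, 5 were higher over 8 libraries and 7 without replicate 3 at an unadjusted edgeR p under 0.05, beside 3.04% and 2.19% of all genes tested, with medians of 1.64 and 1.36. The cardiac myosin gene *Myh6* was at 0.28, 0.926, 1.63 and 1.3 CPM in wild type and 0.945, 42.2, 1.34 and 10.6 CPM in peg/peg, high in peg/peg replicates 2 and 4 alone, and the atrial myosin light chain gene *Myl7* was at 0.0509, 0.401, 0.86 and 0.539 CPM and 0.0242, 16.2, 2.87 and 8.23 CPM. DESeq2 called *Csrp3*, a muscle LIM protein gene, over 8 libraries, at 0.0255, 0.0751, 0.0441 and 0.049 CPM and 0.0969, 3.61, 0.307 and 1.15 CPM (log2 fold change 4.74 ± 1.09, adjusted p 0.0117, and 5.07 ± 1.05 and 0.000741 without replicate 3). The summed level of the cardiac list was 62.0 to 149 CPM in wild type and 84.9 to 232 CPM in peg/peg replicates 1, 2 and 4, against 1133 CPM in replicate 3. Of 15 tested lymphoid genes 4 were lower (*Cd8a*, *Cd8b1*, *Rag1* and *Lck*) over 8 libraries (background 1.27%), with a median of −0.40, and without replicate 3 it was 4 of 16 (*Cd8a*, *Rag1*, *Dntt* and *Lck*, background 1.91%), with a median of −0.67. *Cd8a*, of cytotoxic T cells and thymocytes, was at 2.16, 1.18, 0.551 and 2.28 CPM in wild type and 0.533, 0.61, 0.0876 and 0.0782 CPM in peg/peg. The summed level of the lymphoid list overlapped between genotypes, at 9.02 to 32.8 CPM in wild type and 9.38 to 20.4 CPM in peg/peg. The part of these cell types in the other differences was not tested.

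The remaining cell type lists were read against the same unadjusted edgeR threshold, which 3.04% of all genes passed higher and 1.27% lower over 8 libraries and 2.19% and 1.91% without replicate 3. Without replicate 3, none of 10 genes of brown fat, 14 of adipocytes, 15 of fibroblasts, 10 of Schwann cells and 5 of red cells passed, while 3 of 15 endothelial genes were lower (*Kdr*, *Emcn* and *Egfl7*) and 1 of 14 macrophage genes (*Mertk*) and 1 of 19 skeletal muscle genes (*Ttn*) were higher. The endothelial list had a median of −0.07 in that fit, and its summed level overlapped between genotypes. It was 2082 to 2942 CPM in wild type and 2741, 3861 and 1871 CPM in peg/peg replicates 1, 2 and 4. With replicate 3, 3 skeletal muscle genes (*Acta1*, *Ckm* and *Myh2*) and the fibroblast gene *Fbln1* were higher and *Kdr* was lower. Of 25 interferon-response genes, 5 were higher and 1 lower over 8 libraries, and 2 were higher (*Gbp2* and *Gbp2b*) and 2 lower (*Irf1* and *Socs1*) without replicate 3. None of 20 cell cycle genes passed in either fit, and of 78 nuclear genes of the respiratory chain 1 was higher without replicate 3, with a median of −0.18. In bulk tissue, fewer cells of a type and less RNA per cell cannot be told apart. Of 14 tested replication-dependent histone genes, 1 was higher and 1 lower in either fit, and none of the 7 tested protein genes of the mitochondrial genome passed in either. Of 27 histocompatibility genes, a list made after the values were seen, none passed over 8 libraries, and 3 were higher and 5 lower without replicate 3.

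The study mapped the sites that the pegRNA's Cas9 cuts in purified genomic DNA by CHANGE-seq, and the genes nearest to those sites were followed here. Of 62 listed genes 23 were tested. At an unadjusted edgeR p under 0.05, 4 were higher over 8 libraries (*Ccdc88a*, *Pde4d*, *Sdk1* and *St8sia2*) and none lower, beside 3.04% and 1.27% of all genes tested, with a median of 0.07. *Pde4d*, a cAMP phosphodiesterase gene, was at 18, 19.9, 14.5 and 15.3 CPM in wild type and 16.7, 27.5, 26.2 and 22.5 CPM in peg/peg, with an edgeR log2 difference of 0.46 ± 0.18 (unadjusted p 0.0331) and 0.38 ± 0.18 (unadjusted p 0.0682) without replicate 3. Without replicate 3 none of these 4 passed and 1 other gene, *Klf7*, was higher (background 2.19%), with a log2 difference of 0.28 ± 0.10 and an unadjusted edgeR p of 0.0289. No gene of this list was called by edgeR after adjustment or by DESeq2 with or without replicate 3.

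The same question was asked of the HDR aortae, which carry a 3-base change in the same box. *Tspan2* fell there too, with a log2 fold change of −3.07 ± 0.27 and an adjusted p of 0.00226 by edgeR, and the difference between the 2 effects was −0.41 ± 0.39, with an adjusted p of 1.00 by edgeR. Without peg/peg replicate 3 that difference was −0.21 ± 0.38. Of the 33 genes that DESeq2 called in PE2 aorta, 19 were tested by edgeR in HDR aorta, and *Tspan2* alone had an unadjusted p under 0.05 there (background 0.353% higher and 1.63% lower, 1.98% together). The 2 experiments also differed in labelled strain, age, sex and depth, which cannot be told apart from the editor.

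Differences between the 2 effects were tested gene by gene over all 18 libraries. The edgeR interaction test called 0 of 18094 genes (929 at an unadjusted p under 0.05, 5.13%), and DESeq2 called 12 (0.0477% of 25140), of which 5 had a higher effect in PE2. Without replicate 3 DESeq2 called 13 (0.0482% of 26979), and 7 genes were in both sets: *Capza1*, *Ddx3y*, *Eif2s3y*, *Hist2h2be*, *Slc22a3*, *Slc25a18* and *Sorcs2*. *Ddx3y* and *Eif2s3y* are Y-linked, and the 1 male PE2 library is wild type. Of the immediate early genes 12 of 38 passed an unadjusted edgeR p under 0.05, all 12 with the higher effect in PE2 (background 3.91% higher and 1.23% lower), and 18 of 38 without replicate 3 (background 1.93% higher and 1.35% lower), with a median difference of 0.86 in both. In HDR aorta itself 1 of 37 was higher and 1 lower, with a median of 0.02.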

How the data were processed

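RNA-seq counts of 8 PE2 aortae (4 *Tspan2* peg/peg, 4 wild type) were analyzed. According to the methods and the submitters' processing notes, reads were trimmed with fastp, mapped to GRCm38 with STAR 2.7.0f and counted per gene with featureCounts of Subread 1.6.4 on Gencode M22. The authors deposited raw read counts per gene symbol and, as a second table, counts divided by DESeq2 size factors, a signal table used here only for those factors (0.940 to 1.12). The strand setting is not given in the sources used here. Labels and methods differ on library kit and read length. No column of per-sample values was left out.

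Genes passing filterByExpr (16401 symbols, 99.9% of counts) were tested on deposited counts with edgeR 4.0.16 (TMM, glmQLFTest, R 4.3.3), all genes in 1 fit of the 8 libraries with no covariate, and p-values were adjusted by Benjamini-Hochberg, with a threshold of 0.05. DESeq2 1.42.0 and limma-voom 3.58.1 were alternatives, as were sex, replicate number and *Dbp* class as terms, and each library left out. The *Dbp* class and the further fits without peg/peg replicate 3 were chosen after seeing the data. CPM used TMM library sizes. The scripts were tested on simulated data. Positions came from Gencode M21 (98.2% of symbols) and RefSeq (440 more), sequences from the series' methods and RefSeq. Genes were named when called by edgeR or DESeq2, among the 5 smallest p in either direction, or leading a list; others were chosen after their values were seen. The gene lists and the comparison itself were chosen with earlier results of these data known. Same-numbered libraries correlated at −0.29 to 0.016 across genotypes, which cannot settle whether the numbers pair the mice. At total counts of 38820265 to 44895615, a gene under 0.1 CPM rests on fewer than 5 reads.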

Additional observations from a re-analysis of the deposited data

Results flagged for a closer look

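In 118 groups of 4 libraries, the gap of the highest or lowest library to its nearest neighbour was divided by the range of the group and set against Dixon's 95% critical value, which chance passes in about 1 of 20 groups. There were 14 such groups, 4 of them with the library labelled peg/peg replicate 3. In that library *Tenm2*, which encodes a synaptic adhesion protein, was at 17 CPM against 0.495 to 1.72 CPM in the other peg/peg libraries (ratio 0.926). Its summed CPM of replication-dependent histone genes was 126 against 95.02 to 97.6 (0.915), that of skeletal muscle genes was 1393 against 193 to 369 (0.854), and that of cardiac muscle genes was 1133 against 84.9 to 232 (0.859).

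Peg/peg replicate 2 was apart for *Hspa1b*, at 87.3 against 23.6 to 30.2 CPM (0.897), for *Socs1*, at 5.24 against 3.83 to 3.88 CPM (0.961), and for *Rag1*, at 0.381 against 0.0219 to 0.0782 CPM (0.843). Peg/peg replicate 1 held the most red cell transcripts of its group, with a summed 1203 CPM of 5 genes against 24.6 to 220.0 CPM (0.834), and wild-type replicate 2 the most of its group, with 625 against 277 to 309 CPM (0.909).

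Wild-type replicate 3 was apart in summed cardiac muscle genes, at 149 against 62.0 to 68.7 CPM (0.923), and in 4 genes that were higher in peg/peg. *Gm3608* was at 1.39 CPM there against 0.098 to 0.2 CPM in the other wild-type libraries (0.921), and *Gm4815* was at 1.39 against 0.171 to 0.376 CPM (0.832). *Gm8778* and *Sycp1* were at 0.0662 CPM there and at 0 in the other 3, which gives a ratio of 1 for both and rests on 3 reads each.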

How the results depend on the processing

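The edgeR count over 8 libraries was 1 gene, and it was also 1 with DESeq2 size factors, with limma-voom, without a filter on low counts, with at least 10 counts in every library and at an adjusted p under 0.10. It was 33 by DESeq2, 0 with sex as a covariate and 0 in female libraries alone. Leaving out each library in turn gave 0 to 2 genes, and without wild-type replicate 3 the 1 gene was *Gm3608* (higher), not *Tspan2*. With peg/peg replicate 3 left out, a choice made after the data were seen, it was 2 by limma-voom, 2 in female libraries alone, 2 with sex as a covariate and 2 with *Dbp* class as a covariate. The log2 fold change of *Tspan2* lost its call, at an adjusted p of 0.131 with sex as a covariate (−3.52) and 0.128 in female libraries alone (−3.53), and it ranged from −3.60 to −3.28 (adjusted p 0.00524 to 0.224) with 1 library left out. DESeq2 called 17 to 100 genes with 1 library left out, the fewest (17) when wild-type replicate 2 was absent, 87 when peg/peg replicate 4 was and the most (100) when peg/peg replicate 3 was. It called 152, 54, 85 or 110 genes when wild-type replicate 1, 2, 3 or 4 was left out beside peg/peg replicate 3, 65, 67 or 173 when peg/peg replicate 1, 2 or 4 was, and 95 with *Dbp* class as a covariate without replicate 3. The CPM difference of *Tspan2os* was −0.0838, and in female libraries alone −0.101, where the exact permutation p was 0.0286, with −0.101 to −0.0677 when 1 library was left out. The interaction test called 0 genes by edgeR, 12 by DESeq2, 13 by DESeq2 without peg/peg replicate 3, and 0 to 4 by edgeR with 1 library left out. The cause of these changes was not tested. The log2 fold change crossed 0 for 5 named genes, none of them called over 8 libraries. That of *Cited4* (−0.05 by DESeq2, −1.09 to 0.22 with 1 library left out) was 0.103, 0.184, 0.219 and 0.132 by DESeq2 and 0.11, 0.178, 0.218 and 0.122 by edgeR without wild-type replicate 2 or peg/peg replicate 1, 2 or 4. That of *H2-T-ps* (−0.33, −3.18 to 0.16) was 0.151, 0.0231, 0.0467 and 0.0283 by DESeq2 and 0.165, 0.0184, 0.0525 and 0.022 by edgeR without the same libraries. Limma-voom turned the sign of *Abra* (1.11 to −0.87), *Hspa1l* (0.86 to −0.14) and *Xirp1* (0.50 to −0.51), the last also −0.00500 with the replicate block. Without peg/peg replicate 3 the median log2 difference changed sign for genes of the cell cycle (0.25 to −0.12), skeletal muscle (0.79 to −0.06), histocompatibility (0.31 to −0.13), the mitochondrial genome (−0.23 to 0.03), the extracellular matrix (−0.03 to 0.09), SRF and its cofactors (0.05 to −0.01) and CArG boxes in start-site windows (0.07 to −0.01). Counts over gene lists moved by over 1.5 times in 34 of 162 comparisons.

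Replicate numbers were shared between the genotypes, but same-numbered libraries did not deviate together (correlations of 0.016, −0.23, −0.057 and −0.29). The peg/peg deviations were taken from a group mean that included replicate 3. These correlations therefore cannot settle whether the numbers pair the mice, and *Dbp* and *Nr1d1* did line up by number in both genotypes. With the replicate number as a block, edgeR called 0 genes (198 higher and 204 lower at an unadjusted p under 0.05), and *Tspan2* had a log2 fold change of −3.5 with an adjusted p of 0.295.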

Other observations

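The genes that DESeq2 called without peg/peg replicate 3 included several that stand in no list above, and they were chosen after their values were seen. The secreted protease gene *Adamts1* was at 149, 58.7, 107 and 101 CPM in wild type and 301, 281, 49.8 and 182 CPM in peg/peg (log2 fold change 1.29 ± 0.30, adjusted p 0.00822, DESeq2 without replicate 3). *Irs2*, an adaptor of insulin signalling, was at 28.7, 15.5, 17.1 and 10.2 CPM and 62.8, 39.6, 23.9 and 42.2 CPM (1.43 ± 0.33, adjusted p 0.00657). *Abra*, an actin-binding gene whose product activates SRF signalling in muscle, was at 6.72, 8.96, 4.21 and 3.45 CPM and 17.6, 23.9, 0.0219 and 8.65 CPM (1.52 ± 0.41, adjusted p 0.0394). With replicate 3 in the fit none of these 3 genes was called (DESeq2 adjusted p 0.915, 0.3 and 0.945).

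*Hoxb8*, a homeobox gene of the trunk, was at 11.1, 12.1, 13.4 and 10.7 CPM in wild type and 7.68, 6.38, 2.28 and 8.49 CPM in peg/peg (log2 fold change −0.65 ± 0.17, adjusted p 0.0325, DESeq2 without replicate 3). *Pdgfc*, a platelet-derived growth factor gene of chromosome 3 with a CArG box in its start-site window, was at 21.3, 26.8, 22.8 and 20.6 CPM and 10.7, 15.3, 33.5 and 13.2 CPM (−0.81 ± 0.18, adjusted p 0.00244), and the library labelled peg/peg replicate 3 was the highest of the 8.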
